A study of Mus musculus with 10 samples.

Results

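Transcripts of 44 lysosomal genes were followed in leukemia stem cells of mice, with and without loss of a Nup214 allele. They were taken by symbol from the 52171 genes of the deposited table: 9 proteases, 12 glycan hydrolases, 7 lipid-handling proteins, 7 membrane proteins and progranulin, 6 subunits of the V-ATPase or proteins bound to it, and 3 transcription factors of the TFE family. RNA-seq had been run on bone marrow cells gated by the submitters as lineage and Sca-1 negative and as c-Kit, CD16/32 and CD34 positive, from mice with acute myeloid leukemia driven by the fusion oncogene MLL-AF9. All 10 libraries carry MLL-AF9 and a floxed Nup214 allele. The 5 control libraries are Nup214fl/+, and the 5 called heterozygous are Nup214fl/+,Tie2-Cre, in which a recombinase under the Tie2 promoter of endothelial and blood cells deletes the floxed allele. Since no control carries Tie2-Cre, what Cre itself does and what Nup214 loss does cannot be told apart. Nothing in the labels ties each library to a mouse of its own, so the p-values cover the spread among these 10 libraries and that spread may be technical.

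The lysosome is the acidic organelle in which proteins, glycans and lipids delivered by endocytosis and autophagy are broken down. Its hydrolases are made in the endoplasmic reticulum, most of them tagged with mannose 6-phosphate in the Golgi and carried onward by receptors for that tag, and they work at the low pH kept by the V-ATPase proton pump. TFEB and its relatives bind a CACGTG-containing promoter element shared by many lysosomal genes, and in nutrient-rich cells mTORC1 at the lysosome surface holds them in the cytoplasm. In blood, granulocytes and macrophages are rich in lysosomes and in lysosome-related granules.

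Higher transcript levels in heterozygous cells were found for 12 of the 44 genes and lower levels for 1. The 12 that rose were the proteases Ctsa, Ctsz and Tpp1, the glycan hydrolases Neu1, Hexa and Idua, the lipid-handling genes Asah1, Psap and Gm2a, the progranulin gene Grn, and Atp6v1b2 and Atp6ap1 of the proton pump. Only the membrane protein gene Cd63 fell. The size of the change ran from a log2 fold change of -0.70 for Cd63 to 1.56 for Gm2a. The other 31 genes were not called, the TFE factors among them.

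Levels are given as normalized reads, which are read counts divided by 1 factor per library. Fold changes are heterozygous minus control on the scale of log2(normalized reads + 1). A gene was called at a Benjamini-Hochberg adjusted p under 0.05 by limma over all 22458 genes tested. To be tested, a gene had to reach 1 normalized read in 5 or more libraries. All 44 lysosomal genes passed this filter. Over all tested genes, 5% were called higher and 8.01% lower, with a median log2 fold change of -0.19. The lysosomal genes had a median of 0.30, and 36 of the 44 changes were positive. Most of them are well expressed, and 40 of the 44 had a mean of at least 100 normalized reads. Among the 9056 genes at that level, 10.2% were called higher and 3.54% lower, with a median of 0.08. The 12 of 44 called higher are a larger share than either background, and the 1 of 44 called lower a smaller one, a difference that was not tested. At an unadjusted p under 0.05 limma had 22 of the 44 higher and 2 lower, Ctsl and Cd63, beside 10.5% higher and 21.6% lower over all tested genes. On the recovered reads of 9 libraries, edgeR's quasi-likelihood test called 8 higher and 0 lower, beside 3.98% and 3.18% of the 13496 genes it tested. DESeq2 called 11 higher and 1 lower, beside 5.57% and 4.21% of the 20733 genes to which it gave an adjusted p. In 10 of the 44, every heterozygous library lay above every control, and in Cd63 every one lay below. Such separation was seen upward in 4.64% and downward in 6.67% of the genes tested. For the unadjusted p, edgeR, DESeq2 and the separation, no share was computed among genes with a mean of at least 100.

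**Figure D1:**
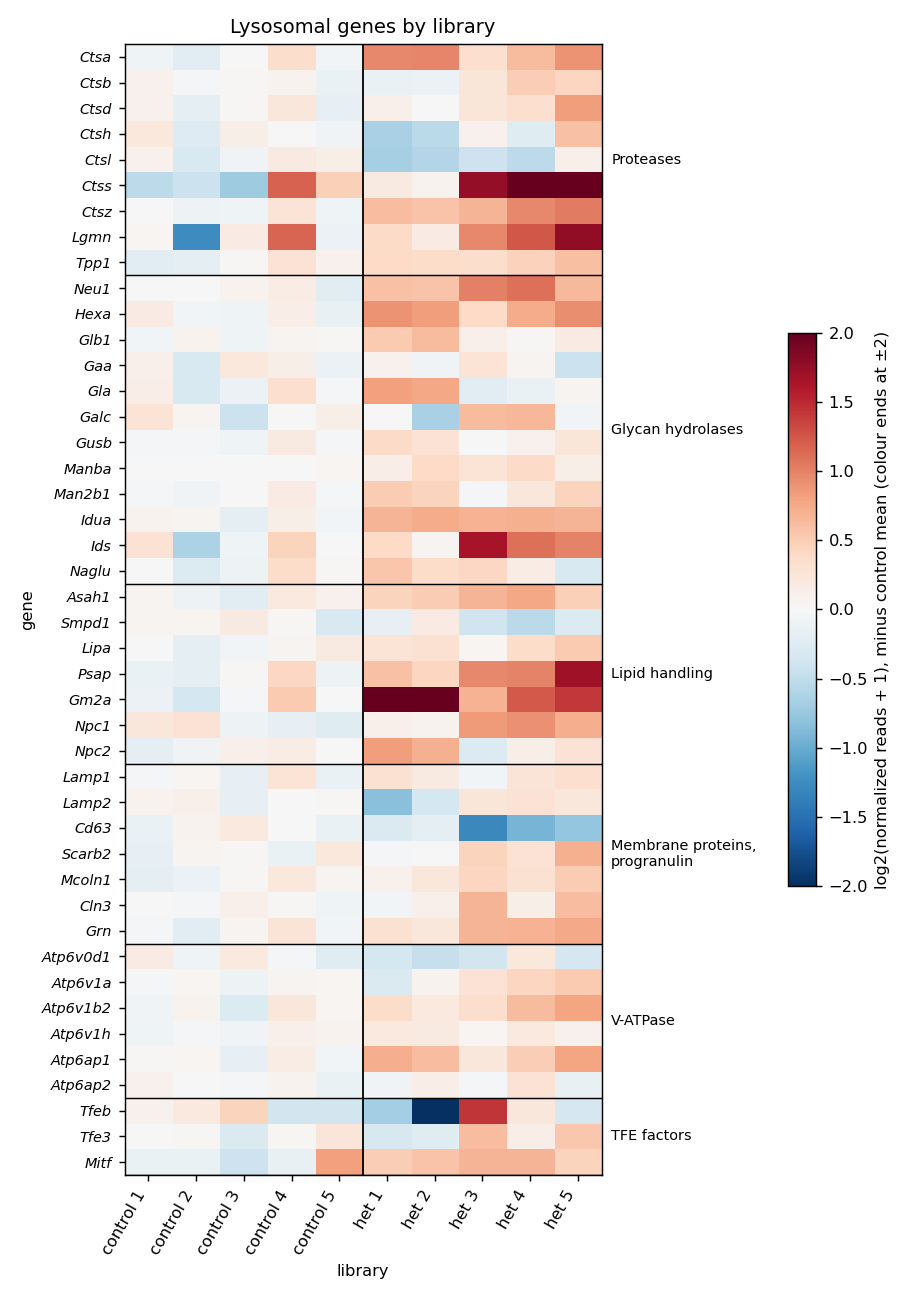
Level of each of the 44 lysosomal genes (rows, by role) in each of the 10 libraries (columns), as log2(normalized reads + 1) minus the control mean of that gene. Red is above and blue below the control mean, and the colour ends at 2 in either direction. The rows of Idua and Asah1 are red in all 5 heterozygous libraries, whereas Gla and Npc2 are reddest in heterozygous libraries 1 and 2, and Ctss and Ids in 3, 4 and 5.

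Nup214 was at 867, 908, 984, 811 and 959 normalized reads in control libraries 1 to 5, and at 376, 504, 602, 446 and 492 in heterozygous libraries 1 to 5. All 5 heterozygous values lay below the controls. Recovered depth was 20.8 to 30.1 M reads in 4 control libraries and 24.6 to 39.1 M in the heterozygous ones, and mitochondrial transcripts made up 3.01 to 4.00% and 2.54 to 5.18% of the normalized reads. Normalized reads summed to 26.7 to 28.4 M per control library and 29.6 to 37.8 M per heterozygous one, and 26913 to 30277 genes were above 0 in controls against 19541 to 25684. The groups do not overlap in either measure. The labels name the cells as hematopoietic stem cells, while the stated gate is that of leukemia stem cells. Transcripts of the gate's positive markers were present in every library (Kit, 673 to 2820 normalized reads, Cd34, 71.4 to 410, and Fcgr3, 4501 to 30703). Over all libraries Kit and Ly6a, which encodes Sca-1, were called lower in the heterozygous group. Without heterozygous libraries 1 and 2, Kit, Cd34 and Ly6a were called lower. Without 3, 4 and 5, Ly6a was called lower, Fcgr3 higher and Kit was not called. These subsets were picked after the data had been seen. Heterozygous libraries 1 and 2 stood apart from 3, 4 and 5. The summed level of 12 neutrophil markers was 63263 and 108747 normalized reads in libraries 1 and 2, 1851010 to 4263010 in 3, 4 and 5, and 1137760 to 1675490 in the controls. Erythroid markers, 10 in number, summed to 4.77 and 114 in libraries 1 and 2, 2263 to 2762 in 3, 4 and 5, and 18.5 to 79.4 in the controls. Of 15 macrophage markers, 12 were tested and 4 (C1qa, C1qb, C1qc and Mrc1) were called higher. These 4 together summed to 88.7 to 380 in controls and 329 to 1011 in heterozygous libraries. All 15 summed to 2385 to 3546 and 3079 to 4537, with Marco, Timd4 and Vsig4 between 0 and 6.15. Of 7 monocyte markers, 6 were tested, and F13a1 was called higher and Ly6c2 lower. Controls had 904 to 2668 normalized reads of F13a1, heterozygous libraries 1 and 2 had 3167 and 2758, and 3, 4 and 5 had 25572 to 37343. Ly6c2 was at 74869 to 111112 in controls, 56999 and 88057 in libraries 1 and 2, and 18429 to 39853 in 3, 4 and 5. All 7 summed to 77527 to 113155 in controls and 44749 to 92120 in heterozygous libraries. Of 5 T and NK cell markers, 4 were tested and none was called over all libraries, while Nkg7 was called lower without libraries 1 and 2. All 5 summed to 26385 to 32482 in controls, 26467 and 40821 in libraries 1 and 2, and 5749 to 13546 in 3, 4 and 5. Whether T or NK cells were present was not tested. B cell markers summed to 1040 to 1344 in controls and 518 to 925 in heterozygous libraries, with Cd79a called higher and Cd79b lower. The sums of plasmacytoid dendritic and of mast and basophil markers overlapped between the groups. The part of these differences in the lysosomal results was not tested, and the counts of called genes are therefore also given without libraries 1 and 2 and without libraries 3, 4 and 5. In bulk libraries, a change in the number of cells of a type and a change in RNA per cell cannot be told apart.

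The promoters of the lysosomal genes were searched for the element bound by the TFE factors. Windows from 250 bases before to 50 after the annotated start, from RefSeq on GRCm38.p6, existed for 38 of the 44. The 8-base word TCACGTGA, which reads the same on both strands, was in a window of 7 of these 38 (18.4%) and of 1.12% of all 27025 genes with a window. Its core CACGTG, counted wherever it occurs and so including those 7, was in 13 (34.2%) against 8.09% of all genes. The variant TCATGTGA, on either strand, was in 4 (10.5%) against 1.15%. Of the 11 called genes with a window, Ctsa alone held CACGTG, and it held the longer word as well. Of the 27 genes that were not called, 12 held CACGTG and 6 the longer word. The variant was in 2 of the called genes, Tpp1 and Grn, and in 2 of the uncalled ones, Ctss and Gla. The difference between called and uncalled genes was not tested. A match is only a run of letters, and a window without one does not show that the factors do not bind nearby.

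The promoter of Ctsa (GRCm38.p6, chr2:164833523-164833822, plus strand) is shown because it is the one called gene with CACGTG. For contrast, and chosen after their values were seen, the windows of Gla (chrX:134600956-134601255, minus strand), Mcoln1 (chr8:3500269-3500568, plus strand) and Lamp1 (chr8:13158911-13159210, plus strand) show genes that hold CACGTG and were not called, and that of Gm2a (chr11:55097735-55098034, plus strand) shows the gene with the highest fold change. Capitals mark TCACGTGA, or CACGTG where the flanking bases differ, and each window reads 5′ to 3′ on its gene's strand.
Ctsa: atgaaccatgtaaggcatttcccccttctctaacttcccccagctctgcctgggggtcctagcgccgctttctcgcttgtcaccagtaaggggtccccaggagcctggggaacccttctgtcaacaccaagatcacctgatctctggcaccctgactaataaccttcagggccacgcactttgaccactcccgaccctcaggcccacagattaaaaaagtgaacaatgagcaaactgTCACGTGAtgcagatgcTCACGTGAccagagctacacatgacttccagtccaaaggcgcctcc
Gla: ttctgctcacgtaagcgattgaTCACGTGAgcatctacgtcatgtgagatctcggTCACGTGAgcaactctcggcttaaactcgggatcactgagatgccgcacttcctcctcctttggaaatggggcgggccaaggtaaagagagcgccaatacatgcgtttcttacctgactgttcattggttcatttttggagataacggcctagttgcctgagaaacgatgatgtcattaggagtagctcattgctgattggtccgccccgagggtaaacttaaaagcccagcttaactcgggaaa
Mcoln1: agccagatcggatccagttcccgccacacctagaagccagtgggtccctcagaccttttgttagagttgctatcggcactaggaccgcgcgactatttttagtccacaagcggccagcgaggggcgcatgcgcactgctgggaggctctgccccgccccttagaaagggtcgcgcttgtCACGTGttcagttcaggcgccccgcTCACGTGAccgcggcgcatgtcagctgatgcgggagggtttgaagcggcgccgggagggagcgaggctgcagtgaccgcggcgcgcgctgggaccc
Lamp1: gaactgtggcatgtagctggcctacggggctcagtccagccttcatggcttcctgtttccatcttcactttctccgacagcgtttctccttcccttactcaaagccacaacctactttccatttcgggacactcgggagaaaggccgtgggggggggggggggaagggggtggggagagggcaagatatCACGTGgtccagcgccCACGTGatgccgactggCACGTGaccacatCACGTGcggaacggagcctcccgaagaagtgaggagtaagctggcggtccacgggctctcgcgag
Gm2a: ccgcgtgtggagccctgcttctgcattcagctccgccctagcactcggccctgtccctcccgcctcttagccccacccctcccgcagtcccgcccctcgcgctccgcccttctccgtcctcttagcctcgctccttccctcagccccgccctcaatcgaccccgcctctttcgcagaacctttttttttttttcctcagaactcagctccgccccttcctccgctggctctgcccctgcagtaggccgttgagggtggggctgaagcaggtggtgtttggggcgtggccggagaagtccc
The cores of Ctsa begin at positions -12 and 5, counted from the annotated start as 0, so they lie on both sides of it. A further annotated window of Ctsa, at chr2:164832622-164832921, held none. Lamp1 carries 4 cores between -61 and -15, none of them within the longer word. Gla has its cores at -227 and -194, with a TCATGTGA between them that is left in lower case. Gm2a holds none of the 3 words.

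Among the 9 proteases, 3 rose and none fell, with a median log2 fold change of 0.44. Ctsa encodes cathepsin A, or protective protein, a carboxypeptidase that also holds beta-galactosidase and neuraminidase 1 in a stable complex. In the GENCODE M21 annotation of GRCm38 (mm10), used for all gene positions here, the gene (ENSMUSG00000017760.16) lies at chr2:164832873-164841032 on the plus strand and overlaps Neurl2 and Pltp on the other strand. Its controls held 4264, 3901, 4534, 5819 and 4395 normalized reads, in the order of libraries 1 to 5 that is used throughout, and its heterozygous libraries 8798, 8981, 5740, 7019 and 8453. Of these, 4 lay above all controls, and heterozygous library 3 lay just under control library 4. The means were 4583 ± 730 and 7798 ± 1385 (SD, n = 5 each), a log2 fold change of 0.76 with an SE of 0.149 (limma adjusted p = 0.00823).

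Ctsz, the gene of cathepsin Z, a carboxypeptidase of myeloid cells, is ENSMUSG00000016256.10 at chr2:174427493-174439039 on the minus strand and overlaps Nelfcd. It was at 8476, 7964, 8027, 10275 and 8020 in controls and at 13036, 12621, 13631, 16600 and 17580 in heterozygous libraries. The groups did not overlap, and libraries 4 and 5 were the highest. Its log2 fold change came to 0.77 (SE 0.131, limma adjusted p = 0.00417). Tpp1 encodes tripeptidyl peptidase 1, a serine protease whose loss in humans causes a form of neuronal ceroid lipofuscinosis. The gene (ENSMUSG00000030894.5) lies at chr7:105744811-105752235 on the minus strand. Its controls held 1854, 1883, 2165, 2610 and 2269, and its heterozygous libraries 2829, 2749, 2721, 2934 and 3260. The rise was small and the groups did not overlap, with a log2 fold change of 0.44 and an SE of 0.115 (limma adjusted p = 0.0285). The call was lost without any one of 6 of the 10 libraries (controls 1, 2, 3 and 5 and heterozygous 4 and 5), where the adjusted p reached 0.0785.

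The abundant proteases Ctsb and Ctsd were not called. Ctsb, the gene of the cysteine protease cathepsin B, was at 37742, 34600, 36330, 37249 and 32333 in controls and at 32400, 32837, 42004, 49818 and 48071 in heterozygous libraries. Ctsd, the gene of the aspartic protease cathepsin D, was at 17668, 14729, 16940, 19406 and 14905 and at 17786, 16649, 19780, 20948 and 29555. In both, heterozygous libraries 1 and 2 lay within the controls and libraries 3, 4 and 5 above them, and neither passed the test (limma adjusted p = 0.445 and 0.212). Ctss, the gene of cathepsin S, which trims the class II invariant chain, averaged 64.2 ± 40.0 and 208 ± 178 (SD, n = 5 each), again with libraries 3, 4 and 5 above every control. Its log2 fold change of 1.43 had an SE of 0.544 (limma adjusted p = 0.0938). Lgmn, the gene of the asparaginyl endopeptidase legumain, averaged 57.6 ± 34.3 and 103 ± 47.0. It was not called (limma adjusted p = 0.140), and neither were the last 2 proteases. Ctsl, the gene of cathepsin L, averaged 235 ± 30.3 and 178 ± 41.9 with 4 heterozygous libraries below all controls. Ctsh, the gene of the aminopeptidase cathepsin H, averaged 1712 ± 213 and 1614 ± 603, with heterozygous libraries 1 and 2 below all controls and 5 above them.

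**Figure D2:**
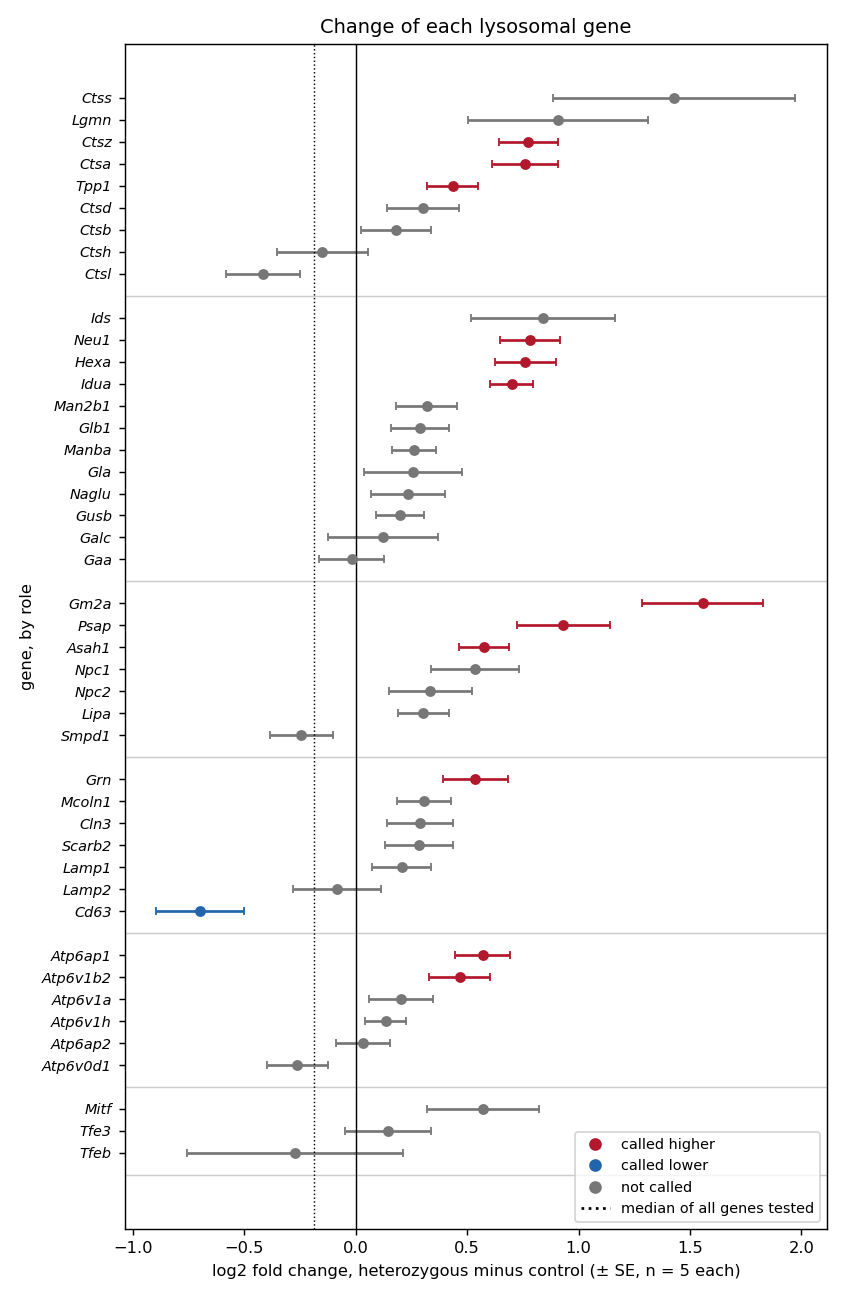
Log2 fold change, heterozygous minus control, of each lysosomal gene (points, by role) with its SE (bars, n = 5 libraries a group). Red genes were called higher, blue lower and grey not called at a limma adjusted p under 0.05, and the dotted line is the median of all tested genes, -0.19. Gm2a stands farthest to the right among the called genes at 1.56, and Cd63 is the one called gene left of 0, at -0.70.

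Of the 12 glycan hydrolases, 3 rose and none fell, with a median of 0.28. Neu1 encodes neuraminidase 1, which removes terminal sialic acids and needs cathepsin A to be active. The gene (ENSMUSG00000007038.5) lies at chr17:34931253-34935953 on the plus strand. Its controls held 6985, 6948, 7246, 7649 and 5951 normalized reads and its heterozygous libraries 10396, 10274, 13896, 14898 and 10901. All 5 lay above the controls, with libraries 3 and 4 the highest. The log2 fold change came to 0.78 (SE 0.134, limma adjusted p = 0.00455). Glb1, the gene of beta-galactosidase and the third partner in that complex, was at 702 ± 33.7 and 869 ± 165 (SD, n = 5 each) and was not called (limma adjusted p = 0.143). Its values in heterozygous libraries 1 and 2, 1009 and 1083, exceeded those in 3, 4 and 5, which were 716 to 783.

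Hexa encodes the alpha subunit of beta-hexosaminidase A, which degrades GM2 ganglioside and whose loss in humans causes Tay-Sachs disease. The gene (ENSMUSG00000025232.8) lies at chr9:59539540-59565109 on the plus strand and overlaps Tmem202. It was at 17849, 15293, 15065, 17389 and 14295 in controls and at 29788, 28567, 20893, 26610 and 30253 in heterozygous libraries. The groups did not overlap, and library 3 was the lowest of the heterozygous ones. The log2 fold change of Hexa came to 0.76 (SE 0.136, limma adjusted p = 0.00547).

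Idua encodes alpha-L-iduronidase, which cuts iduronic acid from heparan and dermatan sulfate. The gene (ENSMUSG00000033540.18) lies at chr5:108660331-108684557 on the plus strand and overlaps Dgkq and Slc26a1. Controls held 659, 651, 554, 679 and 603, and heterozygous libraries held 1002, 1049, 1012, 1030 and 1009. The means were 629 ± 50.6 and 1020 ± 19.0 (SD, n = 5 each), so all 5 heterozygous libraries were nearly alike and far above the controls. Its log2 fold change came to 0.70 (SE 0.0971, limma adjusted p = 0.00123), the smallest adjusted p among the 44. Ids, the gene of iduronate-2-sulfatase, which acts on the same glycans before iduronidase, was expressed at 15.7 to 34.4 normalized reads in controls and 26.2 to 80.2 in heterozygous libraries and was not called (limma adjusted p = 0.0963).

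Man2b1, the gene of the alpha-mannosidase of glycoprotein breakdown, was at 23299, 22726, 23742, 26831 and 23358 in controls and at 34027, 32756, 23225, 28114 and 32596 in heterozygous libraries. Gusb, the gene of beta-glucuronidase, was at 5400, 5460, 5224, 6295 and 5409 and at 7211, 6781, 5522, 5896 and 6551. Library 3 lay within the controls in both, as did library 4 in Gusb, and neither gene was called (limma adjusted p = 0.131 and 0.225). Manba, the gene of beta-mannosidase, was above all controls in every heterozygous library, with 920 ± 13.8 and 1107 ± 104, and was not called either (limma log2 fold change 0.26, adjusted p = 0.0916). Gla, the gene of alpha-galactosidase A, was at 467 and 450 in heterozygous libraries 1 and 2, against 225 to 274 in 3, 4 and 5 and 213 to 331 in controls. The remaining members, Gaa for acid alpha-glucosidase, Galc for galactosylceramidase and Naglu for a heparan sulfate glucosaminidase, had log2 fold changes between -0.02 and 0.24.

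Among the 7 lipid-handling genes, 3 rose and none fell, and their median of 0.53 was the highest of the 6 groups. Gm2a encodes the GM2 activator, a cofactor that presents GM2 ganglioside to hexosaminidase A. The gene (ENSMUSG00000000594.7) lies at chr11:55098115-55113029 on the plus strand. Its controls held 2742, 2321, 2905, 4279 and 2947 normalized reads and its heterozygous libraries 15034, 13001, 4800, 6949 and 7920. All 5 lay above the controls, and libraries 1 and 2 were well above 3, 4 and 5. The mean rose from 3039 ± 736 to 9541 ± 4300 (SD, n = 5 each), 314% of the control mean, with a log2 fold change of 1.56 and an SE of 0.272 (limma adjusted p = 0.00474). Without libraries 1 and 2 the log2 fold change was 1.11 (limma adjusted p = 0.00173), and without 3, 4 and 5 it was 2.23 (limma adjusted p = 1.46e-06). These subsets were picked after the data had been seen, because their libraries were alike. Leaving out unlike libraries narrows the spread, so the p-values of these subsets, here and below, are descriptive only.

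Psap encodes prosaposin, the precursor of the saposins, which are cofactors of sphingolipid hydrolases. The gene (ENSMUSG00000004207.14) lies at chr10:60277627-60302597 on the plus strand. It was at 3179, 3052, 3529, 4637 and 3262 in controls and at 5236, 4693, 6810, 6907 and 11336 in heterozygous libraries. The groups did not overlap, although heterozygous library 2 lay only just above control library 4, and library 5 was the highest. Its log2 fold change came to 0.93 (SE 0.208, limma adjusted p = 0.0149). Asah1 encodes acid ceramidase, which splits ceramide into sphingosine and a fatty acid. The gene (ENSMUSG00000031591.14) lies at chr8:41340197-41374773 on the minus strand. Controls held 1585, 1433, 1304, 1760 and 1624 and heterozygous libraries 2088, 2169, 2448, 2627 and 2137. Every heterozygous library was above every control, with a log2 fold change of 0.58 and an SE of 0.113 (limma adjusted p = 0.00843).

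The remaining 4 lipid-handling genes were not called. Npc2, the gene of the soluble protein that hands cholesterol to Npc1, was at 6509, 7055, 7996, 8270 and 7440 in controls and at 13287, 12188, 6123, 8026 and 9073 in heterozygous libraries. Libraries 1 and 2 were high, 3 lay below and 4 within the controls, and 5 above them. Lipa, the gene of the acid lipase that frees cholesterol from its esters, was at 1748, 1523, 1666, 1814 and 1969 and at 2102, 2146, 1777, 2246 and 2509. Only library 3 lay within the controls, and the log2 fold change, with its SE, was 0.30 ± 0.115 (limma adjusted p = 0.0930). Npc1, the gene of the membrane exporter of cholesterol, was at 195 and 191 in heterozygous libraries 1 and 2, within the controls at 155 to 222, and at 303 to 345 in libraries 3, 4 and 5. Smpd1, the gene of acid sphingomyelinase, averaged 1012 ± 121 and 861 ± 169 (SD, n = 5 each; limma log2 fold change -0.24, adjusted p = 0.250).

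**Figure D3:**
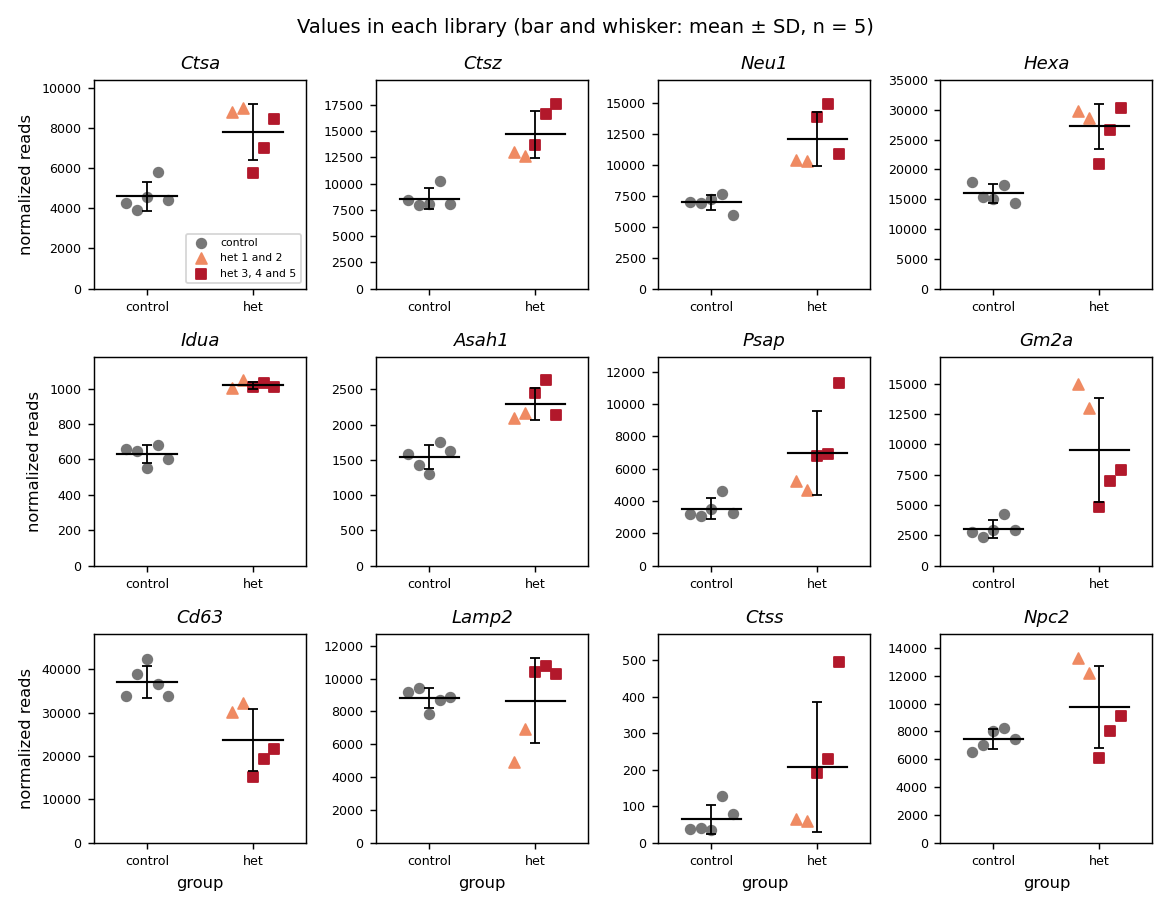
Normalized reads (vertical axis, starting at 0) of 12 lysosomal genes in each control library (grey circles), heterozygous libraries 1 and 2 (orange triangles) and heterozygous libraries 3, 4 and 5 (red squares), with the mean and SD of each group (n = 5). In Idua the 5 heterozygous libraries lie between 1002 and 1049, above all controls, whereas in Gm2a and Npc2 the triangles are the high points and in Ctss and Lamp2 the squares are.

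In the membrane protein and progranulin group, 1 of 7 genes rose and 1 fell, with a median of 0.28. Cd63 encodes a tetraspanin of late endosomes, lysosomes and secretory granules. The gene (ENSMUSG00000025351.14) lies at chr10:128900989-128912822 on the plus strand, and a processed copy of it is annotated, to which some of its reads could be assigned. Its controls held 33775, 38910, 42385, 36566 and 33811 normalized reads and its heterozygous libraries 30113, 32163, 15108, 19393 and 21650. All 5 lay below the controls, libraries 1 and 2 narrowly and 3, 4 and 5 widely. The mean fell from 37089 ± 3653 to 23685 ± 7234 (SD, n = 5 each), with a log2 fold change of -0.70 and an SE of 0.197 (limma adjusted p = 0.0353). Without libraries 1 and 2 the log2 fold change was -0.997 (limma adjusted p = 0.000723), and without 3, 4 and 5 it was -0.25 (limma adjusted p = 0.230). The call was also lost without any one control or without heterozygous library 3, 4 or 5, with an adjusted p of up to 0.0734.

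Grn encodes progranulin, a secreted growth factor precursor that is also delivered to lysosomes and cut there into granulins. The gene (ENSMUSG00000034708.11) lies at chr11:102430315-102437048 on the plus strand and overlaps Fam171a2. It was at 15214, 13324, 16244, 18576 and 14985 in controls and at 19308, 18279, 25016, 25203 and 26455 in heterozygous libraries. Library 2 lay just under control library 4 and libraries 3, 4 and 5 well above all controls. The log2 fold change came to 0.54 (SE 0.145, limma adjusted p = 0.0308). The same 6 single libraries as for Tpp1 ended this call when left out, with an adjusted p of up to 0.0739, and without heterozygous libraries 3, 4 and 5 the log2 fold change was 0.27 (limma adjusted p = 0.184).

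Lamp1 and Lamp2 encode the heavily glycosylated proteins that line the lysosomal membrane, and Lamp2 also serves chaperone-mediated autophagy. Lamp1 was at 21659, 22636, 19799, 26813 and 20113 in controls and at 27367, 25062, 21284, 26474 and 27707 in heterozygous libraries. The groups overlapped, and the log2 fold change of 0.21 had an SE of 0.133 (limma adjusted p = 0.299). Lamp2 was at 9212, 9402, 7815, 8724 and 8890 and at 4941, 6899, 10374, 10775 and 10280. Heterozygous libraries 1 and 2 lay below every control and 3, 4 and 5 above every control, so the means of 8809 ± 616 and 8654 ± 2597 (SD, n = 5 each) were close. Over all libraries Lamp2 was not called (limma adjusted p = 0.794). Mcoln1, the gene of a calcium channel of the lysosome, Cln3, a gene of juvenile neuronal ceroid lipofuscinosis, and Scarb2, the gene of LIMP-2, which carries glucocerebrosidase to lysosomes, had log2 fold changes of 0.31, 0.29 and 0.28. None of these 3 was called, and heterozygous libraries 3, 4 and 5 lay above all controls in each.

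Of the 6 V-ATPase genes, 2 rose and none fell, with a median of 0.17. Atp6ap1 encodes an accessory protein of the membrane sector that takes part in assembly of the pump. The gene (ENSMUSG00000019087.13) lies at chrX:74297097-74304721 on the plus strand. It was at 6811, 6886, 5943, 7444 and 6472 in controls and at 11020, 10269, 7848, 9465 and 11507 in heterozygous libraries. The groups did not overlap, with a log2 fold change of 0.57 and an SE of 0.125 (limma adjusted p = 0.0138). Atp6v1b2 encodes a B subunit of the cytosolic, ATP-splitting sector. The gene (ENSMUSG00000006273.14) lies at chr8:69088646-69113711 on the plus strand and overlaps Slc18a1. Controls held 6798, 7506, 5934, 8386 and 7389 and heterozygous libraries 9217, 8200, 9122, 11047 and 12380. Library 2 lay within the controls, and the log2 fold change, with its SE, was 0.47 ± 0.138 (limma adjusted p = 0.0422). That call too was lost without any of the 6 libraries that ended the call of Tpp1, with an adjusted p of up to 0.0989. Under quantile normalization none of the 6 V-ATPase genes was called, and their median was -0.03.

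Atp6v1a, which encodes the catalytic A subunit, was at 5137, 5356, 4857, 5456 and 5350 in controls and at 4289, 5498, 6356, 7011 and 7499 in heterozygous libraries. Library 1 lay below all controls and the other 4 above, and it was not called (limma adjusted p = 0.341). Atp6ap2, also known as the prorenin receptor, was at 17016, 16172, 15700, 16889 and 14662 and at 15266, 17671, 15656, 19593 and 14450, with overlapping groups and a log2 fold change of 0.03. Atp6v1h, for a regulatory subunit, averaged 1604 ± 95.8 and 1761 ± 87.3 (SD, n = 5 each). Atp6v0d1, for a subunit that joins the stalk to the membrane sector, averaged 2602 ± 321 and 2190 ± 450, with 4 heterozygous libraries below all controls and library 4 above them (limma log2 fold change -0.26, adjusted p = 0.210).

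None of the 3 TFE factor genes was called by limma, edgeR or DESeq2, and 1, Mitf, had an unadjusted limma p under 0.05. Their control levels were 5.34 to 29.0 normalized reads per kb of exon, among the lowest of the 44. Tfe3 was at 265, 270, 219, 272 and 317 normalized reads in controls and at 214, 226, 410, 292 and 387 in heterozygous libraries. Tfeb was at 55.6, 60.1, 72.2, 40.7 and 40.6 and at 32.4, 12.3, 144, 61.9 and 41.5. Heterozygous library 3 was the highest and library 2 the lowest of all libraries for Tfeb, and its SE of 0.484 was the second widest of the 44. Mitf was at 23.4 to 56.3 in controls and at 43.1 to 50.8 in heterozygous libraries (limma log2 fold change 0.57, adjusted p = 0.136). Transcript levels do not show where in the cell these factors are, which is a main step of their control.

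Leaving out the libraries that stand apart changed which lysosomal genes were called. The subsets were picked from these same data because their libraries were alike, so their p-values and counts are descriptive only. Without heterozygous libraries 1 and 2, 21 of the 44 were higher and 2 lower, against 9.33% and 12.1% of all genes, and the median log2 fold change was 0.42. Shares among genes with a mean of at least 100 were not computed for either subset. All 12 genes called higher over 10 libraries kept their call. By group, 6 proteases, 4 glycan hydrolases, 4 lipid-handling genes, 4 of the membrane and progranulin group and 3 V-ATPase genes were higher, and Smpd1 was lower beside Cd63. Ctss had the highest log2 fold change there, 2.30 (limma adjusted p = 0.00229), and the genes called higher also took in Ctsd, Lgmn, Ids, Npc1, Scarb2, Mcoln1, Cln3 and Atp6v1a.

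Without heterozygous libraries 3, 4 and 5, which leaves 2 libraries in that group, 13 of the 44 were higher and 5 lower, against 7.44% and 8.22% of all genes, and the median was 0.26. Of the 12, 9 kept their call, and Tpp1, Grn and Atp6v1b2 lost it. By group, 2 proteases, 6 glycan hydrolases, 4 lipid-handling genes, 1 V-ATPase gene and none of the membrane and progranulin group were higher. Glb1, Gla, Man2b1 and Npc2 were called higher here. The 5 called lower were Ctsh, Ctsl, Lamp2, Atp6v0d1 and Tfeb. Lamp2 had a log2 fold change of -0.59 here (limma adjusted p = 0.00951), and 0.25 without libraries 1 and 2 (limma adjusted p = 0.115). Whether any gene differs between the libraries of the heterozygous group was not tested, since no label separates them.

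Quantile normalization moved the median of all genes from -0.19 to -0.02 and that of the 44 from 0.30 to 0.17. Under it 8 of the 12 were still called higher, and Tpp1, Grn, Atp6v1b2 and Atp6ap1 were not. Ctsa, Ctsz, Neu1, Hexa, Idua, Asah1 and Gm2a were called higher under all 22 alternatives tried. Across these, Idua ranged from 0.60 to 0.77 and Gm2a from 1.11 to 2.23 in log2 fold change. Psap lost its call only in edgeR's quasi-likelihood test on recovered reads (adjusted p = 0.0532).

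Per kilobase of annotated exon, the order of levels among the 44 differed between the groups. In controls the highest was Cd63 with 10073 normalized reads per kb, ahead of Lamp1 (8301), Hexa (8005), Ctsd (7116), Atp6ap2 (6145), Ctsz (5935) and Ctsb (5892). The control ranges of all neighbours in this order overlapped. In heterozygous libraries Hexa was first with 13638 per kb, then Ctsz with 10197, and Cd63 was in place 7 with 6433. Gm2a moved from place 20 to 13, from 736 to 2312 per kb, and Psap from 15 to 12. The lowest in both groups were Ids, Mitf, Galc and Tfeb, at 5.07 to 10.3 per kb. Annotated exons include those of rare isoforms, which lowers the level per kb of genes that have many. Taken over the whole set, the summed normalized reads of the 44 were 0.930 to 1.05% of a control library and 0.973 to 1.11% of a heterozygous one, which overlap.

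**Figure D4:**
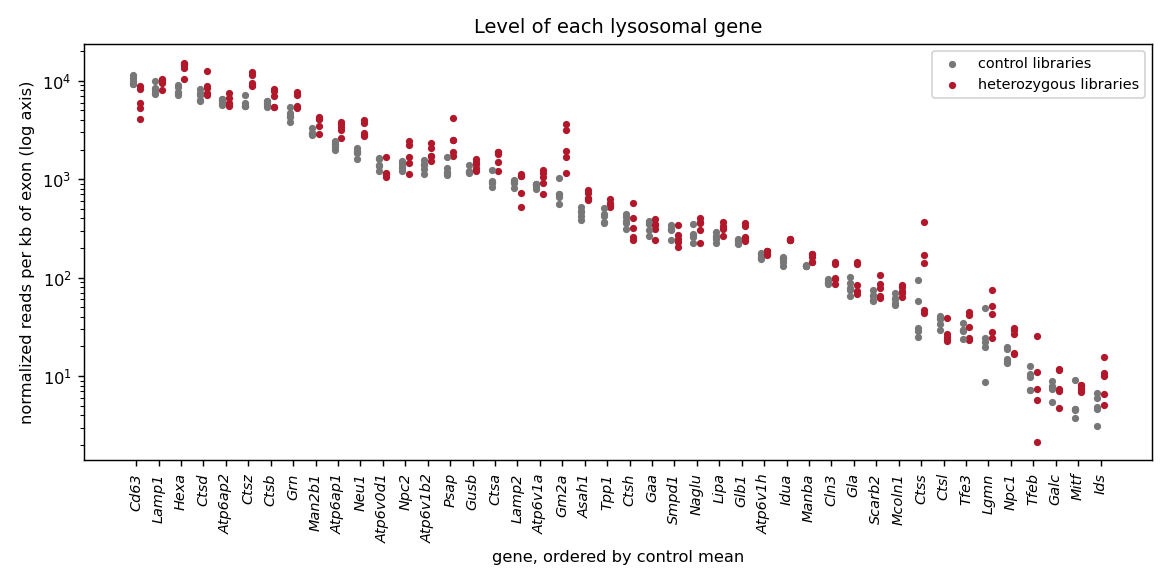
Normalized reads per kilobase of annotated exon (log axis) of the 44 lysosomal genes in each control library (grey) and heterozygous library (red), ordered by the control mean. Levels run from about 10073 for Cd63 to 5.07 for Ids in controls, and the red points lie below the grey ones for Cd63 and above them for Hexa, Ctsz and Gm2a.

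Other genes of the pathway, from lists drawn up with earlier results of these data known, numbered 110, of which 108 were tested. Among them 22 were called higher and 4 lower, with a median log2 fold change of 0.18. Over all tested genes the shares were 5% and 8.01%, and at a mean of at least 100 they were 10.2% and 3.54%. Without heterozygous libraries 1 and 2 the counts were 32 and 7, beside 9.33% and 12.1% of all genes. Without 3, 4 and 5 they were 19 and 13, beside 7.44% and 8.22%. The counts by list that follow are to be read beside the shares over all libraries, and no difference from them was tested. Other hydrolases accounted for 10 higher and 1 lower of 31. Pla2g15, the gene of a lysosomal phospholipase A2, rose from 3113 ± 506 to 5979 ± 529 normalized reads, and Ctso, the gene of cathepsin O, from 233 ± 32.3 to 445 ± 50.6 (SD, n = 5 each). In both, every heterozygous library lay above every control (limma log2 fold changes 0.95 and 0.94, adjusted p = 0.000892 and 0.00174).

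Other membrane proteins gave 5 higher and 1 lower of 22. Cd68, a lysosomal glycoprotein abundant in macrophages and so a marker of them too, had a log2 fold change of 1.94 (limma adjusted p = 7.56e-06). Laptm4a and Ostm1, the partner of a lysosomal chloride transporter, had log2 fold changes of 0.56 and 0.48 (limma adjusted p = 0.00843 and 0.0174). Of 13 other V-ATPase genes only Atp6v1d was called, with a log2 fold change of 0.46 (limma adjusted p = 0.0403), while Atp6v0b (0.39) and Atp6v0e2 (-1.09), next by p, were not. Among 20 genes of sorting to the lysosome, 2 were higher and 2 lower. M6pr, the gene of the small mannose 6-phosphate receptor, rose from 6985 ± 551 to 12316 ± 1655, while Gnptab, the gene of the phosphotransferase that starts the mannose 6-phosphate tag, fell from 748 ± 91.3 to 428 ± 104 (SD, n = 5 each). Gga3, the gene of an adaptor for the receptors, fell by 0.52 on the log2 scale. The adjusted p of these 3 by limma were 0.00182, 0.0102 and 0.0251.

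Of 19 genes of the mTORC1 and TFE control machinery, 3 were higher and none lower. They were Tfec, the myeloid member of the TFE family (log2 fold change 0.49), and Lamtor5 and Lamtor1 (0.48 and 0.42), subunits of the Ragulator complex that anchors mTORC1 control to the lysosome (limma adjusted p = 0.0136, 0.0180 and 0.0359). Controls averaged 1651 ± 92.1 normalized reads of Tfec and the heterozygous group 2334 ± 293 (SD, n = 5 each), with all 5 heterozygous libraries above the controls. Of the 3 cystatins, inhibitors of cysteine cathepsins, Cst3 rose from 10580 ± 434 to 17342 ± 3622 (SD, n = 5 each; limma adjusted p = 0.00843). Cstb and Cst7 were not called, with log2 fold changes of 0.45 and -1.68.

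The 44 genes are spread over 18 chromosomes, 6 of them on X, and all 44 were found in the GENCODE M21 annotation of the same build. In 13 the span of a gene on the opposite strand overlaps, introns included, and whether exons overlap was not looked up. The labels describe no strand-specific counting, so reads from any shared exon of such pairs cannot be told apart. Of the called genes such an overlap of spans holds for Ctsa, Ctsz, Hexa, Idua, Grn and Atp6v1b2. On the same strand, a coding gene overlaps the spans of Ctsd (Gm49369) and Glb1 (Tmppe), neither of them called.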

How the data were processed

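RNA-seq libraries of sorted leukemia stem cells, 5 a group, were made by Geo-seq amplification, per the labels' protocols. The submitters' processing notes name HTSeq, DESeq2, Bowtie 0.12.9 and Cufflinks 2.1.1, and mm10 as the genome build, without saying what each tool did. Signal values of 52171 genes make up the deposited table. Within a library these are whole multiples of 1 step, so the signal deposited by the authors equals reads over a factor of that library. Whole reads, within 0.01, were recovered for at least 99.9958% of values above 0. In control library 1 the step was 0.992, and a cautious rule that takes no step this close to 1 left it out, so recovered reads were used for 9 libraries. No molecular identifiers are described, so precision from depth covers counting error only.

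With group as the only term, limma 3.58.1 (R 4.3.3, trended variance) was fitted to log2(signal + 1) of the 22458 genes that reached 1 in 5 or more libraries. Adding 1 understates changes of low genes. P-values were adjusted by Benjamini-Hochberg over all genes tested. The design allowed a count test for raw counts, and the unit found was normalized. Alternatives were quantile, upper quartile and TMM scaling, no filter, a filter of 5, a replicate block, sample quality weights, a pseudocount of 0.1, leaving out each library, and edgeR 4.0.16 and DESeq2 1.42.0 on recovered reads of 9 libraries, edgeR over 13496 genes. Leaving out heterozygous libraries 1 and 2, or 3, 4 and 5, was added after the data had been seen. The fit was also run on simulated counts in which all heterozygous libraries shared a common mean per gene. That setting lacks the split between libraries 1 and 2 and libraries 3, 4 and 5, so it does not check the fit under such a split.

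The 44 genes and all lists were chosen with earlier results of these data known. Called genes, and the 2 uncalled genes of each group with the highest mean, are given for every library, with the others by range or mean, and of each other list the 3 genes with the smallest p. Of the genes this rule takes, 1 is not reported here, and it stayed in all fits and counts. Promoters were to be shown for called genes holding CACGTG, which left Ctsa. The other windows were chosen after values were seen. Lengths came from GENCODE M21 and promoters from RefSeq. Python 3.11.15, pandas 2.3.3 and matplotlib 3.10.9 were used for summaries and plots.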

Additional observations from a re-analysis of the deposited data

Results flagged for a closer look

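In 7 of 90 groups of 5 libraries tested, 1 library lay far from the other 4 by Dixon's criterion, which chance meets in about 1 of 20 groups. Control library 4 was the high one in 3 of them, with 10275 normalized reads of Ctsz against 7964 to 8476 in the other controls, 6295 of Gusb against 5224 to 5460, and 26831 of Man2b1 against 22726 to 23742. Control library 5 was high for Manba, at 944 against 911 to 919, and for Mitf, at 56.3 against 23.4 to 28.8. Heterozygous library 5 was high for Ctsl, at 251 against 147 to 175 in the other heterozygous libraries. Heterozygous library 4 was high for Atp6v0d1, at 2983 against 1871 to 2059. Of these genes only Ctsz was called.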

How the results depend on the processing

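No called gene of the 44 changed direction under any of the 22 alternatives, and Ctsa, Ctsz, Neu1, Hexa, Idua, Asah1 and Gm2a kept their call under all of them. The cause of the changes below was not tested, except that the alternatives with fewer libraries rest on fewer samples.

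Counts of all genes called moved by more than 1.5 times under several settings. With a replicate block 703 were higher and 945 lower, with edgeR 537 and 429, and without heterozygous libraries 1 and 2, 2095 and 2707. Lower genes alone numbered 517 under quantile normalization, 1119 with no filter, 1063 with a filter of 5, 1028 with a pseudocount of 0.1 and 873 in DESeq2. Leaving out 1 library gave 559 to 1313 higher and 599 to 2250 lower. Of the 44 genes, 21 were higher without heterozygous libraries 1 and 2. The number lower was 0 under TMM scaling, the replicate block and edgeR, 2 without libraries 1 and 2 and 5 without 3, 4 and 5. Leaving out 1 library gave 9 to 14 higher and 0 to 1 lower.

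By group, proteases called higher numbered 6 without libraries 1 and 2, and glycan hydrolases 6 without 3, 4 and 5. In the membrane and progranulin group the number was 0 under quantile normalization, edgeR and without 3, 4 and 5, and 4 without 1 and 2. For the V-ATPase it was 0 under quantile normalization and 1 under upper quartile scaling, no filter, a pseudocount of 0.1, the replicate block, edgeR, DESeq2 and without 3, 4 and 5. Leaving out 1 library gave 1 to 2 V-ATPase genes, 0 to 1 of the membrane and progranulin group, 2 to 4 proteases, 3 to 4 glycan hydrolases, 3 to 4 lipid-handling genes and 0 TFE factors.

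The sign turned for 15 genes that were not called. Under quantile normalization the log2 fold changes were -0.23 for Atp6ap2, -0.032 for Atp6v1a, -0.018 for Atp6v1h, -0.057 for Ctsb, -0.028 for Gusb and -0.061 for Lamp1, and under upper quartile scaling -0.028 for Atp6ap2. Gaa was at 0.049 under TMM scaling, 0.026 with quality weights and 0.0092 in DESeq2. Tfeb was at 0.099 in edgeR and 0.13 in DESeq2. Without heterozygous libraries 1 and 2, Ctsh was at 0.15, Gla at -0.10, Lamp2 at 0.25 and Tfeb at 0.45. Without 3, 4 and 5, Atp6v1a was at -0.11, Ctsb at -0.13, Gaa at 0.0050, Galc at -0.32, Scarb2 at -0.015, Smpd1 at 0.00015 and Tfe3 at -0.28. Leaving out 1 library gave ranges of -0.032 to 0.078 for Atp6ap2, -0.096 to 0.085 for Gaa, -0.014 to 0.31 for Galc, -0.18 to 0.10 for Lamp2 and -0.70 to 0.16 for Tfeb.

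Same-numbered libraries did not deviate together, with correlations of 0.0817, 0.0108, -0.0124, -0.0905 and -0.0650 for numbers 1 to 5, so the numbers were not taken as pairs. With the replicate block 11 of the 44 were higher and 0 lower, and Tpp1, Atp6v1b2 and Cd63 lost their call. No control library correlated best with its own number.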
